A study of Mus musculus with 4 samples.

Results

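The postsynaptic scaffold genes Dlg1, Dlg2, Dlg3, Dlg4, Homer1, Homer2, Homer3, Baiap2, Dlgap1 and Nsmf were followed in prefrontal cortex RNA of transgenic female mice overexpressing the human synaptic form of acetylcholinesterase (AChE), against control females of the FVB/N strain. Acetylcholinesterase is the enzyme that breaks down acetylcholine. Members were all probe sets whose single gene symbol is one of these 10 genes, with the older aliases of Nsmf (Jac and Nelf) included. This gave 11 of the 12422 probe sets on the array, covering 8 of the 10 genes, and Dlg2 and Dlgap1 are not analysed here because no probe set carries their name alone. Homer1, Baiap2 and Nsmf are each read by 2 probe sets, which share the same 4 RNA samples and are not replicates of each other.

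There were 2 transgenic pools and 2 control pools, each of total RNA from 4 females and hybridised to 1 array. The labels give neither the promoter of the transgene nor the founder line and strain of the transgenic mice, and no age for either group. Nothing says that pools of a group were drawn from different mice, so the p-values below reflect only how these 4 samples varied, and that variation may be technical. With 4 arrays the precision of every value below is limited.

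Scaffold proteins hold glutamate receptors and their signalling partners under the membrane of excitatory synapses. The Dlg genes encode the membrane-associated guanylate kinases SAP97, PSD-93, SAP102 and PSD-95, whose PDZ domains bind the tails of NMDA receptors and of proteins that accompany AMPA receptors. Dlgap1 binds the guanylate kinase domain of these proteins and links them to Shank, and Homer proteins join Shank to group I metabotropic glutamate receptors and to calcium release channels. Baiap2 (IRSp53) connects the density to Rac, Cdc42 and actin. Nsmf encodes Jacob, which travels between synapse and nucleus after NMDA receptor activity.

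The arrays had similar overall levels, with median intensities of 87.45 and 88.2 in the transgenic pools and 87.4 and 86.6 in the control pools. The mouse Ache probe set read 365.3 and 355.6 in the transgenic pools, against 599.5 and 621.9 in the control pools. The labels do not say if it reads the human transcript, and it is not used as a check of the groups. Xist, the RNA of the inactive X chromosome, read 178.5 and 228 in the transgenic pools, against 29.3 and 21.1 in the control pools, so the control signal does not show the labelled sex, and no Y-linked probe set (Uty, Eif2s3y, Kdm5d) exceeded 28 in any pool. Of 12 tested markers of cortical neurons, 1 was called higher in the transgenic pools and 2 were called lower, and none of the 12 named by a probe set lay at the floor on all arrays. Their summed intensity was 18865 and 20439 in the transgenic pools and 24181 and 24356 in the control pools. Of 8 tested markers of olfactory bulb and migrating neuroblasts 5 were called higher, with sums of 3610 and 2889 in the transgenic pools and 2357 and 1708 in the control pools. Both tested blood genes were called higher (sums 8473 and 6945 against 2779 and 2396), 1 of 8 tested oligodendrocyte markers and 1 of 9 tested microglial markers were called lower, and astrocyte markers moved both ways (2 higher and 3 lower of 10). Of interneuron markers 1 was called higher and 2 lower of 10, and of endothelial markers 1 was called higher of 7. Calb2, the interneuron marker called higher, is also 1 of the 5 olfactory bulb markers called higher. Over all 5701 genes, each read at its brightest tested probe set like the markers, 9.49% were called, 5% higher and 4.49% lower. A single call in so short a list is therefore not read as a change of that cell type. Of all 7453 tested probe sets 1811 had an unadjusted limma p under 0.05. So did 6 of 12 cortical neuron, 5 of 10 interneuron, 8 of 10 astrocyte and 6 of 8 olfactory bulb markers. The numbers were 2 of 8 for oligodendrocytes, 3 of 9 for microglia, 2 of 7 for endothelium and 2 of 2 for blood. The median log2 change was -0.35 for cortical neuron and for astrocyte markers. Astrocyte sums were 15099 and 14870 in the transgenic pools and 17913 and 18358 in the control pools. Of 4 tested striatal markers limma called 0, with 1 at an unadjusted p under 0.05. The sums over the 5 named by a probe set were 5509 and 3729 in the transgenic pools and 3431 and 6062 in the control pools, so pools of a group differed widely. The summed choroid plexus signal was 94.3 and 93.5 against 137.1 and 125. Cnp, Fcer1g, Kl and Rgs9 lay at the floor on all arrays. The part of cell makeup, blood, strain and sex in the results below was not tested, and in pooled tissue fewer cells of a type and less RNA per cell cannot be told apart.

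Of the 11 scaffold probe sets, 9 passed the filter on dim signals and were tested, and 3 of these differed between the groups at an adjusted p under 0.05. Over all tested probe sets 10% were called (5.46% higher and 4.56% lower). Probe sets of Homer2 (160695_i_at) and Baiap2 (103098_at) were higher in the transgenic pools, and 1 probe set of Nsmf (99557_at) was lower. The median log2 change of the 9 was 0.044, against -0.034 over all 7453 tested probe sets, with 5 changes above 0 and 4 below. Pools of opposite groups did not overlap at 6 of the 9 probe sets, and the same was true of 53.7% of all tested probe sets. The tests come from limma with Benjamini-Hochberg adjustment over all tested probe sets. The calls rest on leaving dim probe sets out. Without the filter limma called 48 probe sets in all and 0 of the 11 scaffold probe sets. With a stricter filter, at the 60th percentile of the mean log2 value, the same 3 scaffold probe sets were called.

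**Figure D1:**
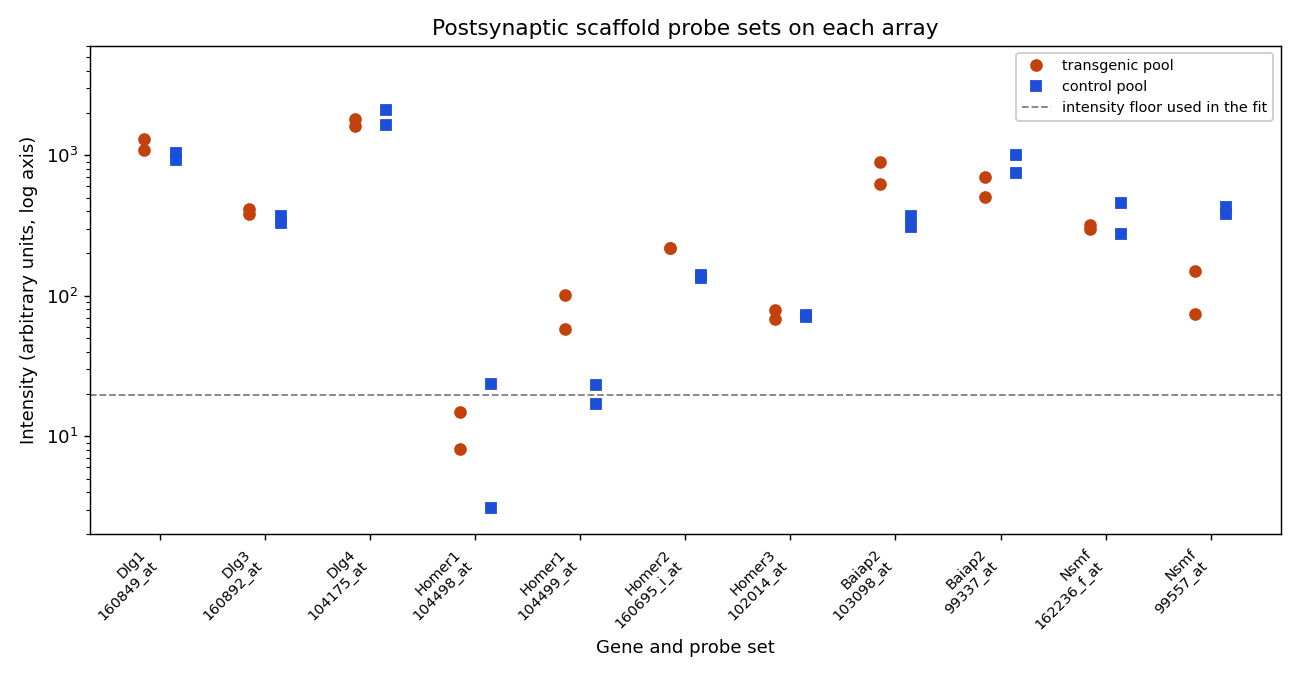
Intensity (arbitrary units, log axis) of each scaffold probe set in each pool, with transgenic pools as circles and control pools as squares. The groups do not overlap at Dlg1, Dlg3, Homer1 104499_at, Homer2, both Baiap2 probe sets (in opposite directions) and Nsmf 99557_at. Homer1 104498_at lies near or below the floor of 19.675 (dashed) in all pools. Heights of different probe sets cannot be compared with each other.

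Among the membrane-associated guanylate kinases limma called 0 of 3 probe sets, and 0 had an unadjusted p under 0.05 (the smallest was 0.0731, for Dlg1). Dlg4 encodes PSD-95, the core scaffold of the excitatory synapse. It read 1612.8 and 1820.7 in the transgenic pools and 1654.3 and 2087.6 in the control pools, so the groups overlapped (log2 change -0.12, 95% interval -0.43 to 0.20, adjusted p = 0.672). The interval allows between 0.742 and 1.15 times the control level. Dlg1, whose product SAP97 accompanies AMPA receptors on their way to the synapse, read 1086.7 and 1302.5 in the transgenic pools and 920.4 and 1043.1 in the control pools. Both transgenic values lay above both control values, but the log2 change of 0.28 (interval -0.032 to 0.59) did not pass (adjusted p = 0.258). Dlg3, an X-linked gene whose product SAP102 is abundant at young synapses, read 379.5 and 411.4 in the transgenic pools and 370.6 and 328.1 in the control pools. These values too were separate, though the nearest pools of opposite groups differed less than the control pools did between themselves (log2 change 0.18, interval -0.16 to 0.52, adjusted p = 0.531). The intervals of these 3 genes end at 1.51-fold for Dlg1, 1.44-fold for Dlg3 and 1.15-fold for Dlg4 on the upper side, and at 0.978, 0.893 and 0.742 times the control level on the lower side.

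The Homer genes gave 3 different readings. Homer2, which encodes a long Homer protein with a coiled coil that joins receptors into clusters, read 220.5 and 218.5 in the transgenic pools and 133.2 and 141.2 in the control pools. The pools of each group lay close together and the groups were well apart. The fitted rise was 1.60-fold (log2 change 0.68 ± 0.18 SE, interval 0.27 to 1.08, adjusted p = 0.0441). The call is a narrow one, although the log2 change stayed between 0.64 and 0.72 when any 1 of the 4 arrays was left out. Without the intensity trend the adjusted p was 0.0646, and with quantile normalization it was 0.0528. In the naming of the array's maker the suffix _i_at marks a set with fewer unique probes than the design called for.

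Homer3, best known from cerebellar Purkinje cells, read 79.1 and 68.6 in the transgenic pools and 72.5 and 70.4 in the control pools. The control values lay between the transgenic ones (log2 change 0.044, interval -0.57 to 0.66, adjusted p = 0.947). This probe set is dim and its interval is the widest of the Homer family, running from 0.673 to 1.58 times the control level.

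Homer1 produces long Homer proteins and, after synaptic activity, the short form Homer1a, which uncouples the long ones. Both of its probe sets lay under the intensity filter and were not tested. At 104499_at the signal was 58.3 and 101.4 in the transgenic pools and 23.2 and 17 in the control pools, with 1 of the 2 control arrays below the floor of 19.675. Both transgenic values were above both control values, although the transgenic pools differed from each other by 0.80 on the log2 scale. With the control signal at background, no size is given for this difference, which did not pass in a fit without the filter (unadjusted p = 0.0179, adjusted p = 0.218). At 104498_at the signal was 8.1 and 14.8 in the transgenic pools and 23.6 and 3.1 in the control pools, of which only 1 control array exceeded the floor. That probe set therefore gave no usable level for Homer1 in either group. The Homer1 forms read by each probe set were not identified here.

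Baiap2 was read by probe sets that moved in opposite directions. At 103098_at the signal was 901.7 and 624.3 in the transgenic pools and 310.3 and 371.5 in the control pools, with every transgenic value above every control value. This was a rise of 2.21-fold (log2 change 1.14 ± 0.19 SE, interval 0.71 to 1.58, adjusted p = 0.00475). At 99337_at the signal was 700.4 and 503.5 in the transgenic pools and 747.5 and 996.1 in the control pools. Here every transgenic value was below every control value, but the difference did not pass (log2 change -0.54 ± 0.19 SE, interval -0.97 to -0.11, adjusted p = 0.118). The first transgenic pool gave the higher signal at both probe sets, and without it the log2 change at 103098_at was 0.88, against 1.14 with all arrays. At 99337_at the log2 change was -0.75 without control replicate 1 and -0.33 without control replicate 2. It was -0.78 without transgenic replicate 1 and -0.30 without transgenic replicate 2.

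Nsmf fell at 1 of its 2 probe sets. At 99557_at the signal was 73.8 and 148.9 in the transgenic pools and 426.7 and 380.3 in the control pools. The transgenic pools differed 1.01 log2 units from each other, yet both lay far below the control pools. The fitted fall was 3.84-fold (log2 change -1.94 ± 0.29 SE, interval -2.59 to -1.29, adjusted p = 0.00232). It was the 16th largest fall of the 7453 tested probe sets, and its log2 change was -1.44 without transgenic replicate 1 and -2.45 without transgenic replicate 2. At 162236_f_at the signal was 297.7 and 317.2 in the transgenic pools and 457.7 and 276 in the control pools. The transgenic values lay between the control values, and the log2 change of -0.21 (interval -0.72 to 0.30, adjusted p = 0.630) did not pass. The suffix _f_at marks a set whose probes may match several related sequences.

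**Figure D2:**
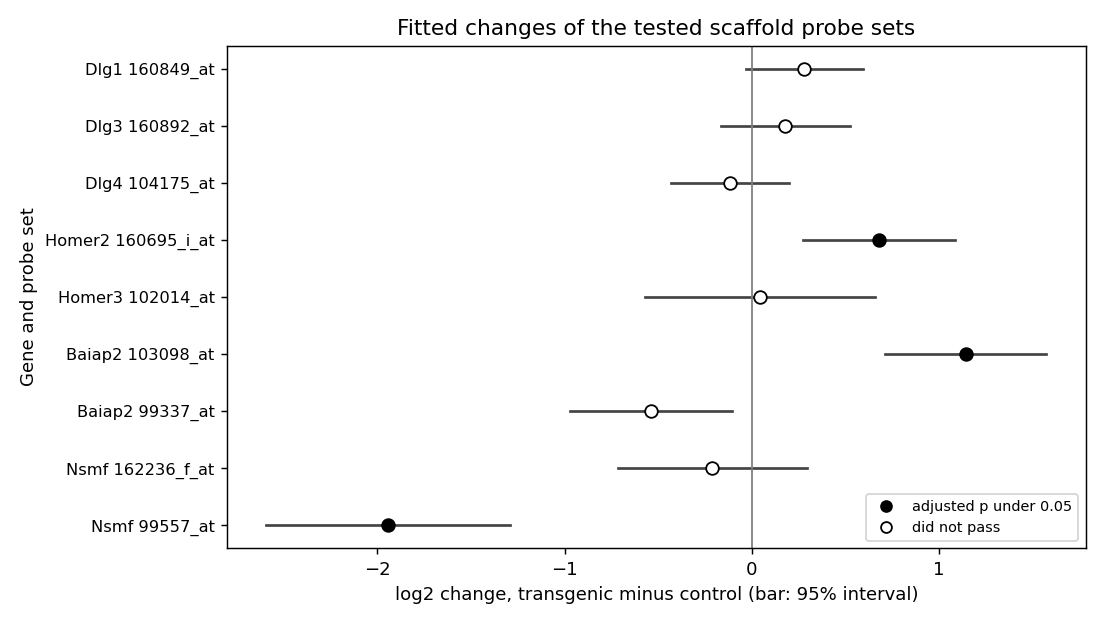
Fitted log2 change (transgenic minus control) with its 95% interval for the 9 tested scaffold probe sets. Filled points passed at an adjusted p under 0.05: Baiap2 103098_at at 1.14, Homer2 at 0.68 and Nsmf 99557_at at -1.94. Intervals of Dlg1, Dlg3, Dlg4, Homer3 and Nsmf 162236_f_at include 0.

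The disagreement between probe sets was tested directly for both genes. For every pair of tested probe sets naming the same gene, the log2 difference between the 2 signals was taken on each array and compared between groups with limma. Of 1213 such pairs on the array 11.5% differed in their change, and 5.69% did so with changes of opposite sign. Both scaffold pairs were among those that differed. For Baiap2 the ratio of 103098_at to 99337_at was 1.29 and 1.24 in the transgenic pools and 0.415 and 0.373 in the control pools. These ratios hardly varied within a group, even though the signals themselves varied between the transgenic pools. The difference in log2 change was 1.68 ± 0.22 SE (interval 1.20 to 2.17, adjusted p = 0.000435). For Nsmf the ratio of 162236_f_at to 99557_at was 4.03 and 2.13 in the transgenic pools and 1.07 and 0.726 in the control pools. The difference in log2 change was 1.73 ± 0.35 SE (interval 0.96 to 2.50, adjusted p = 0.00706), and without transgenic replicate 1 it was 1.27. Without the filter on dim probe sets the adjusted p was 0.253 for the Nsmf pair and 0.0354 for the Baiap2 pair. The size of such a ratio has no meaning by itself, because probe sets respond differently, and only its difference between groups is read here. The transcript region that each probe set covers was not known here, so no single direction is given for either gene.

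**Figure D3:**
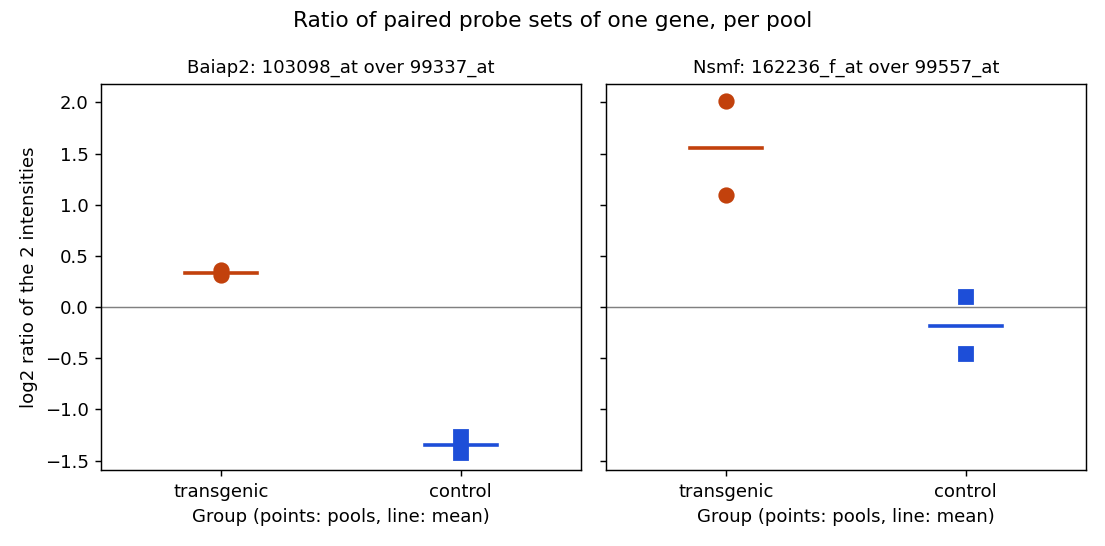
Log2 ratio of the 2 probe set intensities of Baiap2 (left panel) and of Nsmf (right panel) in each pool, with group means as lines. In both genes the ratio is higher in the transgenic pools than in the control pools. The Baiap2 pools of a group nearly coincide, and the Nsmf pools spread by about 1 log2 unit or less.

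Promoter sequences from RefSeq on GRCm38.p6 were matched by symbol for 9 of the 10 genes, each window holding 250 bases before and 50 bases after a listed start. The windows of Homer2 and Baiap2 are shown because these genes had a probe set called higher, and that of Homer1 because it is the family's activity-induced gene. Where several starts are listed, the window of highest GC content is given. Each is written 5′ to 3′ on the gene's strand, and capitals mark every match of the motifs searched on both strands. The motifs were the GC box GGGCGG, the cyclic AMP response element core TGACG, the E-box CACGTG and the MEF2 site, and matches that overlap run together in the capitals.
Homer2 (chr7:81706876-81707175, minus strand): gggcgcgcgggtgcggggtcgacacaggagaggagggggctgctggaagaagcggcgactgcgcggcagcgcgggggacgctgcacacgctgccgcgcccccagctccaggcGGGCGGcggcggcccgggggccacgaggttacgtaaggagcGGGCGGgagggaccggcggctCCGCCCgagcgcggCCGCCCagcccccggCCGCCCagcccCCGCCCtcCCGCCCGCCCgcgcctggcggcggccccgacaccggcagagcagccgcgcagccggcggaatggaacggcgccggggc
Baiap2 (chr11:119942842-119943141, plus strand): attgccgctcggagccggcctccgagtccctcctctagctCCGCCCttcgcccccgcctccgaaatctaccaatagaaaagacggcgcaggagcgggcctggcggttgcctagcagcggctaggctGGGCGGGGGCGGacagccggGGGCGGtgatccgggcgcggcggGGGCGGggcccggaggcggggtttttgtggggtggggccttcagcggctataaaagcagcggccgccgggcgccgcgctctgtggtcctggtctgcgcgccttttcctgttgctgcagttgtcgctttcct
Homer1 (chr13:93303507-93303806, plus strand): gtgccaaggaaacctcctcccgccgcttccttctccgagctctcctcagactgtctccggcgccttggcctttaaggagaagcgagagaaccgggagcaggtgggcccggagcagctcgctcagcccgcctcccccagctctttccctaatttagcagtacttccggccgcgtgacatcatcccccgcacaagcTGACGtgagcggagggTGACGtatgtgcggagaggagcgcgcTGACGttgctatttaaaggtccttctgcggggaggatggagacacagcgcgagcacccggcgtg
The capitals are GC boxes in Homer2 (8 matches) and Baiap2 (5 matches), and TGACG cores in Homer1 (3 matches). The GC content is 82.3% in Homer2, 70.3% in Baiap2 and 63.0% in Homer1, against a median of 52.7% over 32851 windows. The Homer2 and Homer1 windows were picked for their GC content, so nothing is read from their excess over that median. The other listed window of Homer2 has 52.3% GC and 0 GC boxes, and that of Homer1 has 44.7% GC and 0 TGACG cores. A GC box is present in 35.7% of these windows, a TGACG core in 20.8%, the E-box in 7.15% and the MEF2 site in 3.19%. The matches are a description of the letters in these windows and were not related to the measured changes.

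The surrounding postsynaptic genes were read from a list of 98 partners of the scaffold proteins, of which 54 are named by a probe set and 39 were tested, each at its brightest tested probe set. In the transgenic pools 5 of these 39 genes were called higher and 5 lower, while 29 did not pass. Over all 5701 genes read in the same way 9.49% were called, 5% higher and 4.49% lower. The median log2 change of the list was 0.016, against -0.037 for all genes, and the median absolute log2 change was 0.39 against 0.23. The list was chosen with earlier results of these data known, and nothing particular to it is read from these counts. The count and its balance depended on the setting. Without the filter on dim probe sets 1 gene was called higher and 0 lower. Without the intensity trend 5 were called higher and 0 lower. Lin7c was not called in that fit (adjusted p = 0.147), so these are not the same 5 genes as in the count above. With 1 array left out, calls were lost in both directions.

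Among the glutamate receptor subunits some were called and others were not. The AMPA receptor subunits Gria1 (92943_at) and Gria2 (92947_s_at) had log2 changes of 2.79 and 2.06 and were called higher. The AMPA subunit Gria3 and the NMDA subunits Grin2c and Grin2d, named after their values were seen, had -0.095, -0.13 and 0.24 and did not pass (adjusted p = 0.906, 0.669 and 0.815). Gria3 read 71.5 and 164.8 in the transgenic pools, and Grin2d read 27.4 and 84.2 in the control pools. Their intervals were wide (-0.89 to 0.70 and -0.87 to 1.35), so these readings do not show that the 2 genes were unchanged. Cacng2, which encodes stargazin, the protein that ties AMPA receptors to PSD-95, read 635.8 and 502.9 in the transgenic pools and 67.4 and 116.9 in the control pools (log2 change 2.67 ± 0.26 SE, adjusted p = 0.000121). A second Gria1 probe set (92944_at) had a log2 change of -0.12 and did not pass, and the pair differed in its change by 2.91 ± 0.23 SE on the log2 scale (adjusted p = 1.04e-05 over all pairs). All 3 Gria2 probe sets were called higher.

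Among the scaffold proteins' direct partners, the calls went both ways. Dlgap4, a relative of Dlgap1 that binds PSD-95, read 589.1 and 630.5 in the transgenic pools and 233.3 and 297.4 in the control pools. Its values were separate and its rise was 2.31-fold (log2 change 1.21 ± 0.17 SE, adjusted p = 0.00128). With 1 array left out the log2 change of Dlgap4 ranged from 1.04 to 1.39. The small PDZ proteins Lin7b and Lin7c, which join Cask in a complex that carries NMDA receptors, moved in opposite directions. Lin7c read 1172.8 and 1419.7 in the transgenic pools and 910.4 and 864.1 in the control pools (log2 change 0.54 ± 0.14 SE, adjusted p = 0.0346). Lin7b read 554.7 and 642.1 in the transgenic pools and 968.7 and 864.9 in the control pools (log2 change -0.62 ± 0.14 SE, adjusted p = 0.0228). Kcnj4, an inward rectifier potassium channel that binds PSD-95, read 207 and 228 in the transgenic pools and 476.8 and 351.7 in the control pools (log2 change -0.91 ± 0.19 SE, adjusted p = 0.0133). Without the intensity trend Lin7b, Lin7c and Kcnj4 each lost the call (adjusted p = 0.110, 0.147 and 0.0649). With 1 array left out the log2 change ranged from -0.72 to -0.51 for Lin7b and from 0.40 to 0.68 for Lin7c. For Kcnj4 it ranged from -1.13 to -0.70.

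Camk2a, which encodes a subunit of the calcium-dependent kinase of the density, read 31.2 and 62.9 in the transgenic pools and 136.6 and 121 in the control pools. Its log2 change was -1.54 ± 0.35 SE (adjusted p = 0.0241, and 0.0664 without the intensity trend), and -1.03 without transgenic replicate 1. Its transgenic mean of 47.05 lay under the filter's cut of 49.4, so it was tested only through its control signal. Camk2b, another subunit, named after its values were seen, had a log2 change of -0.070 and did not pass (adjusted p = 0.767). The cytoskeletal genes Sptan1, which encodes brain spectrin, and Actn1, an actin crosslinker, had log2 changes of -0.46 and -0.56 (adjusted p = 0.0251 and 0.0362). Actn1 has further probe sets (104579_r_at and 92280_at) at -0.080 and -0.42, and neither passed. The calls of Actn1 (104578_f_at) and Sptan1 were lost without the intensity trend (adjusted p = 0.138 and 0.157). With 1 array left out the log2 change ranged from -0.68 to -0.43 for that Actn1 probe set and from -0.50 to -0.42 for Sptan1. Nsf, an ATPase that binds the AMPA receptor subunit GluA2, had a log2 change of -0.68 that did not pass (adjusted p = 0.0527). Cyfip2, a part of the Rac-driven actin regulator that IRSp53 also engages, had one of 0.44 that did not pass (adjusted p = 0.0541).

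**Figure D4:**
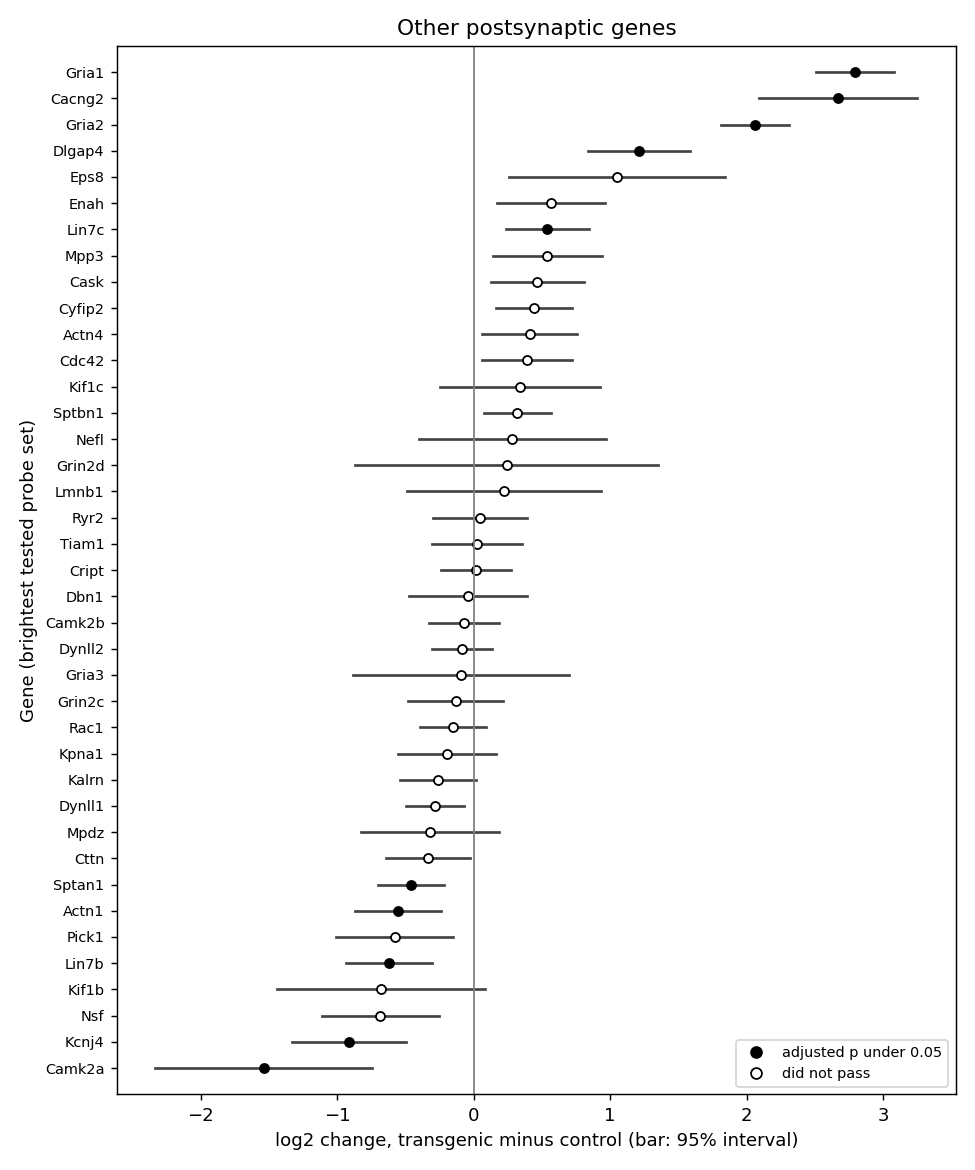
Fitted log2 change (transgenic minus control) with its 95% interval for the 39 tested partner genes, each at its brightest tested probe set and ordered by change. Filled points passed: Gria1, Cacng2, Gria2, Dlgap4 and Lin7c above 0, and Sptan1, Actn1, Lin7b, Kcnj4 and Camk2a below 0.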

How the data were processed

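The authors deposited 1 linear intensity for each probe set in each pool, a unit read from the values because no header or label names it. Their tools: not given in the sources used here. The largest gap between arrays was 1.85% in medians and 2.29% in upper quartiles, under the limit of 10%, so values were used as deposited. Of 12488 probe sets 66 controls were left out. Of 10833 probe sets with a single symbol, 10817 took their current symbol by gene identifier from the RefSeq table of GRCm38.p6 and 16 kept the platform's. Several genes were listed for 396 probe sets and none for 1193, and these were not named. Values were floored at their 25th percentile (19.675) and log2-transformed. Probe sets with a mean log2 value above the 40th percentile were tested (7453). limma 3.58.1 in R 4.3.3 (lmFit, eBayes with an intensity trend, two-sided) gave transgenic minus control with 2 residual degrees of freedom plus 7.51 from the shared prior. The threshold was an adjusted p of 0.05, and folds are ratios of geometric means of floored values. Errors are SEs of that fit and intervals are 95%. In a test on data simulated with the fitted spread the scripts recovered known changes. These were larger than that fitted for Homer2 and lay in brighter probe sets, so the test does not speak to smaller changes or dim probe sets.

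Every probe set of the member genes is named. Of the partner genes, the rule named those with the 12 smallest p-values. Members and lists were chosen with earlier results of these data known. Genes were not ranked by likeness of pattern, because 4 arrays in 2 groups do not order likeness. Alternatives covered the floor, filter, normalization, variance prior, replicate block and each array left out. The labels give no methods, so a fit without a block was set as the main one. Titles share replicate numbers, so a block was an alternative. The deviations of same-numbered pools correlated at r = 0.06 across probe sets.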

Additional observations from a re-analysis of the deposited data

How the results depend on the processing

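The number of called probe sets, 747 in all, was 48 without the filter on dim probe sets, 395 without the intensity trend and 303 to 749 with 1 array left out. Scaffold calls, 3 as reported, were 0 without the filter. With 1 array left out the members of the called set changed. Without control replicate 1, Baiap2 99337_at (log2 change -0.75) was called lower beside the higher call of 103098_at, and Homer2 was not called. Without transgenic replicate 1 only Nsmf 99557_at kept its call. Partner genes, 10 as reported, gave 1 without the filter, 5 without the trend (all higher) and 4 to 9 with 1 array left out. Differing probe set pairs, 139 as reported, were 38 without the filter and 106 to 136 with 1 array left out. Without the filter 12422 probe sets were tested and the shared prior carried 0.748 degrees of freedom, against 7.51. In that fit the adjusted p was 0.121 for Homer2, 0.242 for Baiap2 103098_at and 0.249 for Nsmf 99557_at. With 1 array left out, the log2 change of 3 uncalled probe sets crossed 0: Dlg4 ranged from -0.28 to 0.051 (above 0 without control replicate 2), Homer3 from -0.059 to 0.15 (below 0 without transgenic replicate 1) and Nsmf 162236_f_at from -0.57 to 0.15 (above 0 without control replicate 1). Homer2 lost its call in 8 of the 14 alternatives, including a floor at the 40th percentile (adjusted p = 0.0501). With a replicate block, in which numbers were only shared and not known to pair pools, 892 probe sets, 3 scaffold probe sets, 12 partner genes and 208 pairs passed. With 1 array left out the lone pool is assumed to vary like the other group. The shared prior then carried 58.6 and 57.0 degrees of freedom without control replicates 1 and 2. It carried 3.97 and 3.93 without transgenic replicates 1 and 2. Adjusted p-values and counts of those fits therefore do not compare directly with those of the fit on all arrays. A call lost or gained there is not read as dependence on 1 pool. Depth is not known for arrays, and dim probe sets such as those of Homer1 carry only a bound. The cause of these shifts was not tested.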
